A study of Mus musculus with 9 samples.

Results

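The genes described here encode the constitutive proteasome, measured in mouse mammary fibroblasts grown alone or with breast carcinoma cells. Members were the rows of the deposited gene table whose name starts with Psma, Psmb, Psmc, Psmd, Psme, Psmf or Psmg and a digit, leaving out Psmb8, Psmb9 and Psmb10. The rule found 45 of the 11931 genes in the table. Of these, 44 passed the filter on low values (at least 5 in at least 3 of 9 libraries) and were tested among 10639 genes, and Psmd9 did not pass. The rule used gene names and no measured value, but it was set with earlier results of these data known. The match Psmc3ip shares only the start of its name with the subunits, since it encodes a meiotic recombination factor, and it was kept in the counts as the rule asks. The remaining 44 members were the 7 alpha and 7 beta subunits of the core, 6 ATPases and 11 other subunits of the regulatory particle, 7 assembly chaperones, and 6 activators and inhibitors.

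RNA was sequenced from the 3′ end of transcripts. The cells were normal mammary fibroblasts (NMF) taken from the mammary fat pads of female BALB/c mice aged 12 weeks, and all groups had 1 week of recovery on collagen. NMF were then kept as monocultures for 5 days, or 4T1-GFP cells, a GFP-labelled line of BALB/c mammary carcinoma, were seeded on top of them for 3 days or for 5 days. Fibroblasts of every group were then sorted as GFP- PDPN+ cells, PDPN being a surface protein of many fibroblasts. Each group held 3 libraries, and nothing in the labels says whether these came from separate cultures or animals, so p-values measure only the spread between these libraries. There was no monoculture at 3 days, so in the comparison of the 3-day co-culture with the monoculture the carcinoma cells and the days in culture cannot be told apart. Both comparisons with the monoculture share the same 3 control libraries. In bulk libraries, fewer cells of a type and less RNA per cell cannot be told apart. For replicate 2 of the 5-day co-culture the column header does not mention 4T1, and it was assigned by elimination, every other sample having a column of its own.

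Recovered depth ran from 1048471 to 3567326 reads per library, with means of 2966627 in the monocultures, 1632228 at 3 days and 1806567 at 5 days. Values are normalised counts, in which 1 read was worth 0.481 to 1.66 depending on the library. All 12 fibroblast markers listed were in the table, with a summed value of 46227 to 63829 in the monocultures, 44399 to 55637 at 3 days and 39564 to 53754 at 5 days. Of those 12, 5 fell at 3 days, and at 5 days 6 fell and 1 rose, by the test described below. Over all tested genes 10.6% rose and 9.37% fell at 3 days, and 12.6% rose and 11.4% fell at 5 days. Of 16 tested epithelial and carcinoma markers 14 rose on both days, and the summed value of the 18 in the table was 61.7 to 114.9 in the monocultures, 1175 to 1352 at 3 days and 1153 to 1587 at 5 days. Some of the tested ones, such as Epcam at no more than 0.5 in the monocultures, met the filter on low values only through the co-cultures. The filter thus favoured a rise in them. In the monocultures 3 of these 18 markers were at 0 in every library. Wfdc2, which had the highest mean of them in both co-culture groups, was 1.2, 7.2 and 0.6 in the monocultures and 233.9 to 479.4 in the co-cultures. Of the immune markers, 7 of 12 were in the table, with summed values of up to 278.4, 355.0 and 155.6 in the same order, and 1 of 6 endothelial markers was in the table, at a summed value of at most 11.8. The epithelial and carcinoma markers thus moved with co-culture, and their part in the proteasome results was not tested.

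The proteasome is the protease complex that degrades proteins tagged with ubiquitin. Its barrel-shaped 20S core has outer rings of alpha subunits, which form the gate, and inner rings of beta subunits, of which Psmb5, Psmb6 and Psmb7 carry the proteolytic sites. The 19S regulatory particle binds ubiquitin chains, removes them and unfolds the substrate with its ring of ATPases, and other activators can cap the core in its place. Interferon replaces the catalytic subunits with Psmb8, Psmb9 and Psmb10 to form the immunoproteasome, and cells respond to a shortage of proteasome activity through the transcription factor Nfe2l1.

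Most proteasome genes did not pass the test on either day. Between the 3-day co-culture and the monoculture, 4 of 44 tested members rose, namely Psmd8, Psmd10, Psme2 and Psme4, and 1 fell, Psmf1 (limma on log2(value + 1), Benjamini-Hochberg adjusted p under 0.05 over all tested genes). Those are 9.09% and 2.27% of the members, where 10.6% of all tested genes rose and 9.37% fell. After 5 days 7 members were higher than in the monoculture, Psma2, Psmb5, Psmc6, Psmd8, Psmd10, Psme2 and Psme4, and 1 was lower, Psme3. Those are 15.9% and 2.27%, where 12.6% of all tested genes rose and 11.4% fell. All 4 members that rose at 3 days were also among the 7 at 5 days, but both comparisons use the same monocultures. The share of all tested genes that rose on both days is not given, so this count is not read as a result. Between the co-cultures at 5 and 3 days 1 member rose, Psmb5, and 0 fell, where 3.20% of all tested genes rose and 3.71% fell. At an unadjusted p under 0.05 limma gave 4 members higher and 0 lower between the days. The share of all tested genes at that threshold is not given, so counts at an unadjusted p, here and below, are not read as a result. The adjusted calls of edgeR were 1 and 0 and those of DESeq2 were 2 and 0, where 677 and 738 genes passed in all. The count at 3 days varied with single libraries. It was 2 without monoculture replicate 3 and 2 without 3-day co-culture replicate 3, against 5 with all libraries. Over all tested genes 1523 and 1713 passed in those fits, against 2129 with all libraries. The count at 5 days stayed between 7 and 9 when any 1 library was left out, where 1875 to 2744 of all tested genes passed, against 2552.

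**Figure D1:**
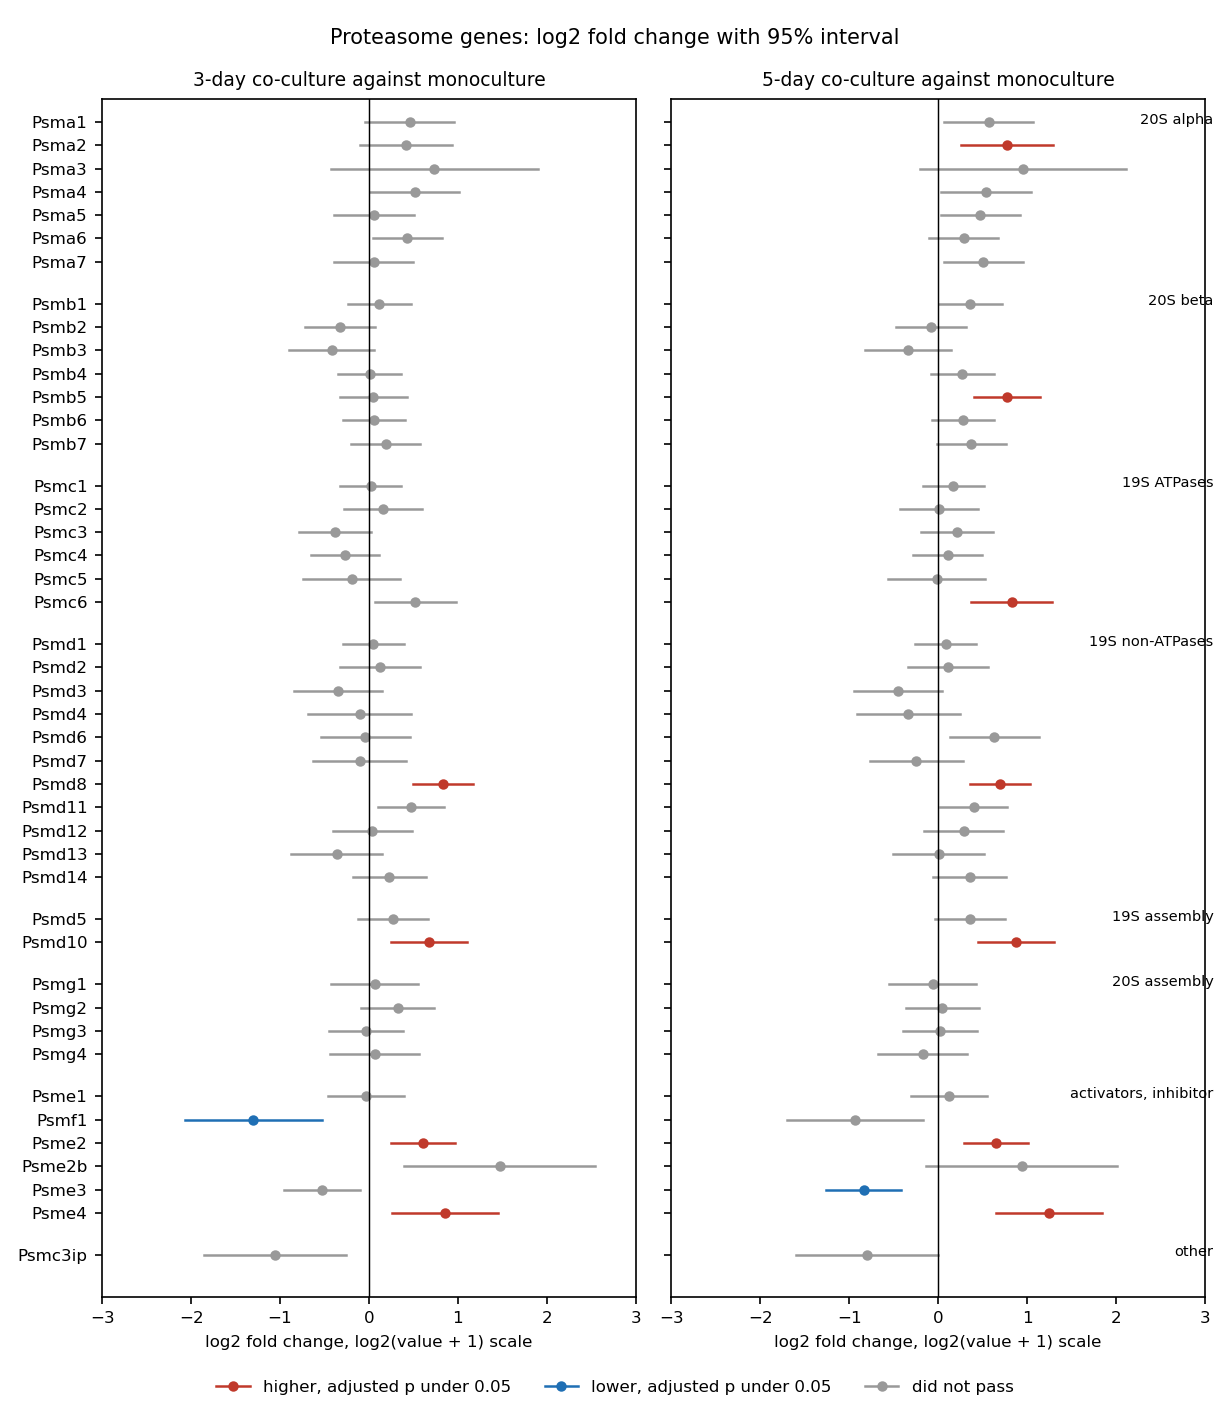
Log2 fold change (x axis, log2(value + 1) scale) of each of the 44 tested members, in rows by role, with its 95% interval as a bar, for the 3-day (left) and 5-day (right) co-culture against the monoculture. Members that passed the test higher are red (4 and 7), those lower are blue (1 and 1), and the alpha ring lies to the right of 0 in all 7 rows of both panels.

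Small differences lay mostly on the higher side at 5 days. The median log2 fold change of the 44 members was 0.06 at 3 days and 0.28 at 5 days against the monoculture, beside 0.00 and -0.01 over all tested genes, and 29 and then 33 of the members had a positive value. Over the 24 alternative settings the members' median stayed between 0.01 and 0.14 at 3 days and between 0.16 and 0.30 at 5 days. The members together took 0.863% ± 0.035 of the reads of a monoculture (SD, n = 3), 0.883% ± 0.022 at 3 days and 0.962% ± 0.032 at 5 days. The 5-day libraries, at 0.933% to 0.997%, all lay above the highest monoculture, at 0.903%, and above the highest 3-day library, at 0.897%. At 5 days 15 of 44 members (34.1%) had all 3 values above all 3 of the monoculture, where 20.8% of all tested genes did, and 3 (6.82%) had all 3 below, where 20.1% did. At 3 days 9 members (20.5%) lay wholly above, where 19.2% of all tested genes did, and 3 lay wholly below, where 18.1% did. No p is given for these counts, since members share libraries.

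Promoter sequences are shown for the 4 members that rose on both days and for Psmb5, which alone passed between the days. They were chosen after their values were seen. Each is the stretch of 150 bases nearest the annotated start that overlaps no annotated exon, read 5′ to 3′ on the gene's strand from the RefSeq promoter table of GRCm38.p6, a C57BL/6J reference, whereas the cells were BALB/c. Capitals mark matches to 1 of the 3 motifs searched on both strands, which were an antioxidant response element core (TGACNNNGC), a CCAAT box (CCAAT) and an interferon-stimulated response element core (TTCNNTTTC).
Psmb5, chr14:54618023-54618172, minus strand: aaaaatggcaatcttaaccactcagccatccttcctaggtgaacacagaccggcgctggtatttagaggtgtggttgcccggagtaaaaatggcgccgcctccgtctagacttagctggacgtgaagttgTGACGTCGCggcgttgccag
Psmd8, chr7:29180702-29180851, minus strand: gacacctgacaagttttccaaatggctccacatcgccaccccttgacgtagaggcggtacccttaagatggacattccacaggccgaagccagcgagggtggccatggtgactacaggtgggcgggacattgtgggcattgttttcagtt
Psmd10, chrX:140956729-140956878, minus strand: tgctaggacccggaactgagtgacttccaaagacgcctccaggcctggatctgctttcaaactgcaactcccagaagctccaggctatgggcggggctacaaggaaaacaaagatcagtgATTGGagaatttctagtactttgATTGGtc
Psme2, chr14:55591114-55591263, minus strand: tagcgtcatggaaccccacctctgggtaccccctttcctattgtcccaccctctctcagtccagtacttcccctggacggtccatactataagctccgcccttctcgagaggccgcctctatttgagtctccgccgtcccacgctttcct
Psme4, chr11:30771576-30771725, plus strand: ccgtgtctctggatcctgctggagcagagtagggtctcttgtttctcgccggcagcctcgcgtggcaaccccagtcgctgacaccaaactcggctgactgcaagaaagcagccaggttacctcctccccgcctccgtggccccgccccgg

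Psmb5 holds the sequence TGACGTCGC from 47 to 39 bases before its RefSeq start. Psmd10 holds the CCAAT box on its other strand from 47 to 43 and from 24 to 20 bases before its RefSeq start. For both genes that start lies inside the gene position given below, so the printed stretches end 28 and 18 bases before it. In the printed stretches of Psmd8, Psme2 and Psme4 none of the 3 motifs was found. The table held the 250 bases before the start for 38 of the 45 members, in 41 windows, and gave none for Psmb1, Psmb2, Psmb7, Psmc3, Psmd3, Psmd7 and Psmg2. The antioxidant core was in 5 of 41 windows (12.2%), beside 10.2% of all 32851 windows, and those 5 belonged to Psmb5, Psmb6, Psmc6, Psmd9 and Psmd12. CCAAT was in 13 of 41 (31.7%), beside 33.8% of all windows. The interferon core was in 3 of 41 (7.32%), those of Psmb3, Psmd4 and Psmd9, beside 7.13% of all windows. A stricter form of the interferon core, with 1 more T at its 5′ end, had been searched first: it was in windows of the same 3 members and in a smaller share of all windows, so that the comparison with all windows depends on the form. The form given here was taken after that search, to keep the printed motif short, and nothing is read from either. A match describes letters only, and shows neither binding nor a cause.

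**Figure D2:**
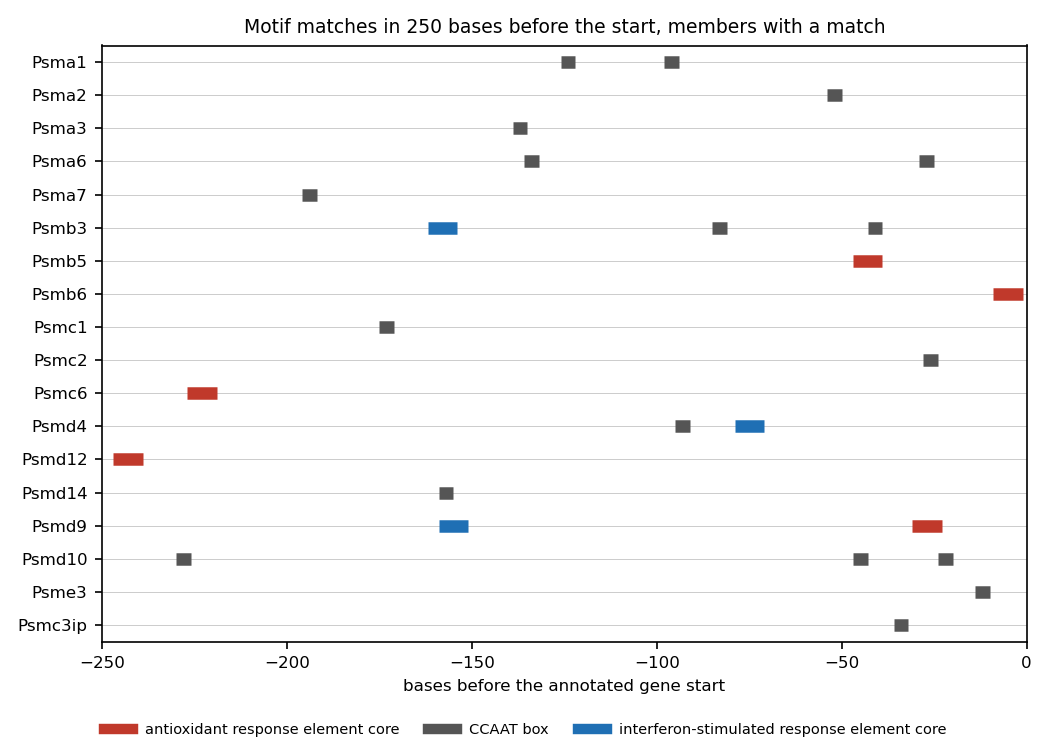
Position in bases before the annotated RefSeq start (x axis) of each motif match in the 250 bases before that start. There is 1 row per member that has a match, and the motif is given by colour. The matches are spread over the window, and Psmb5 has a single match, to the antioxidant core, near its start.

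In the alpha ring, the gate of the core, all 7 fold changes were positive on both days. Their medians were 0.43 at 3 days and 0.54 at 5 days on the log2 scale. At 5 days 1 subunit passed the test, where 12.6% of all tested genes rose. With so few genes in each role, counts of calls by role, here and below, are not read as a result. At 3 days limma, edgeR and DESeq2 called 0 of the 7, where limma gave 2 at an unadjusted p under 0.05. All 7 remained positive at 5 days under each of the 24 alternative settings. At 3 days 5 to 7 were positive, and 5 were so without monoculture replicate 1 and without 3-day co-culture replicate 3. Psma2 (chromosome 13, 14613240 to 14674236, plus strand, mm10) was 548.3, 513.4 and 597.1 in the monocultures, 481.6, 746.2 and 1113.0 at 3 days, and 776.3, 1008.7 and 1073.7 at 5 days. Every 5-day value exceeded every monoculture value, whereas the 3-day libraries spread from below the monocultures to above the 5-day libraries. It was 1.71-fold higher at 5 days (log2 fold change 0.77, SE 0.24, limma adjusted p = 0.0290). The call ended when monoculture replicate 1, 2 or 3 or 5-day replicate 2 or 3 was left out, and the adjusted p lay between 0.00569 and 0.105 over 24 alternatives, of which 16 passed. The gene AW209491 overlaps Psma2 on the same strand and is also in the table, so reads in the overlap could have been assigned to either. A further 7 members overlap a gene in the table on the opposite strand (Psma3, Psmb7, Psmc3, Psmc3ip, Psmd1, Psmd13 and Psme1), and as the strand setting is not given in the sources used here, reads of such pairs cannot be told apart. Psma3 was 16.7, 125.9 and 82.9 in the monocultures, 53.1, 84.2 and 187.8 at 3 days, and 142.0, 108.0 and 87.4 at 5 days. The groups overlapped, with the first monoculture below every other library, and without that library its log2 fold change at 3 days was -0.11 in place of 0.74 (adjusted p = 0.379 with all libraries, and 0.108 to 0.884 over the alternatives). The other 5 subunits had log2 fold changes between 0.05 and 0.52 at 3 days and between 0.29 and 0.57 at 5 days, with adjusted p from 0.0904 to 0.886. Among them Psma1 passed at 5 days without monoculture replicate 2 (0.0443), and Psma4 at 5 days without monoculture replicate 1 (0.0403) and at 3 days with array weights, each in 1 of 24 alternatives. Psma2 at 3 days passed in 1 as well, without 3-day replicate 1 (0.0269). Psma6 lay wholly above the monoculture on both days, at 146.1, 193.7 and 180.0 in the monocultures against 206.7 to 267.1 at 3 days and 197.3 to 231.9 at 5 days.

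In the beta ring 1 of 7 subunits passed the test. It was Psmb5, which carries the chymotrypsin-like activity. Psmb5 (chromosome 14, 54614119 to 54618022, minus strand) was 115.1, 113.0 and 111.8 in the monocultures, 117.9, 114.9 and 119.6 at 3 days, and 176.1, 182.6 and 228.5 at 5 days. The monoculture and 3-day libraries overlapped within a narrow range, and all 5-day libraries lay above both. These values rest on 595, 322 and 575 reads per group, and the narrow range is not read as a measure of the spread. Psmb5 rose 1.71-fold at 5 days against the monoculture (log2 fold change 0.77, SE 0.18, limma adjusted p = 0.00445, and at most 0.0266 in 24 alternatives). At 3 days its log2 fold change was 0.05, with a 95% interval from -0.32 to 0.43. Between 5 and 3 days the difference itself passed, at a log2 fold change of 0.72 (SE 0.18, limma adjusted p = 0.0219). That call ended without 3-day co-culture replicate 2 (adjusted p = 0.0804) and without 5-day co-culture replicate 3 (0.0787), within a range of 0.00886 to 0.0804 over the alternatives. The number of members called between the days was then 0, and it was 2 without 3-day co-culture replicate 1, the second being Psmc3.

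The other catalytic subunits did not pass. Psmb6, which carries the caspase-like activity, was 639.3, 705.2 and 680.0 in the monocultures, 772.2, 766.4 and 582.9 at 3 days, and 805.0, 800.1 and 856.4 at 5 days. Psmb7, which carries the trypsin-like activity, was 156.0, 204.3 and 181.9, then 247.4, 196.3 and 176.7, then 226.4, 231.9 and 242.2. The 5-day libraries lay wholly above the monocultures for both genes, at log2 fold changes of 0.28 and 0.38 (limma adjusted p = 0.243 and 0.155). Among the structural beta subunits Psmb1 and Psmb4 were also wholly above at 5 days, at 0.36 and 0.27, whereas Psmb3 lay wholly below, at -0.33 (adjusted p = 0.319), and Psmb2 was at -0.08 with overlapping groups. At 3 days Psmb3 was at -0.42 (adjusted p = 0.214), a value that passed in 1 of 24 alternatives, without 3-day replicate 1 (0.0315).

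Immunoproteasome subunits, which the member rule leaves out, are given beside their constitutive counterparts. Psmb8, the counterpart of Psmb5, was 47.7, 40.9 and 43.1 in the monocultures, 107.9, 142.0 and 103.0 at 3 days, and 75.5, 71.7 and 72.4 at 5 days. It thus rose at 3 days by 1.39 on the log2 scale (SE 0.20, limma adjusted p = 0.000148) and was higher at 5 days by 0.73 (SE 0.20, adjusted p = 0.0153), the latter call ending without monoculture replicate 2 (0.0575) or 3 (0.0509) within a range of 0.00732 to 0.0844. The lower value at 5 than at 3 days, by a log2 difference of -0.66, did not pass (adjusted p = 0.0599), though no libraries overlapped. Psmb10, the counterpart of Psmb7, was 66.8, 73.1 and 86.8, then 132.8, 84.9 and 107.1, then 150.9, 133.2 and 128.6, and it rose at 5 days by 0.86 (SE 0.21, adjusted p = 0.00655). Psmb9, the counterpart of Psmb6, stayed between 2.8 and 8.3 in all 9 libraries, and its groups overlapped. It overlaps Tap1, a gene in the table, on the opposite strand, so reads of that pair cannot be told apart.

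**Figure D3:**
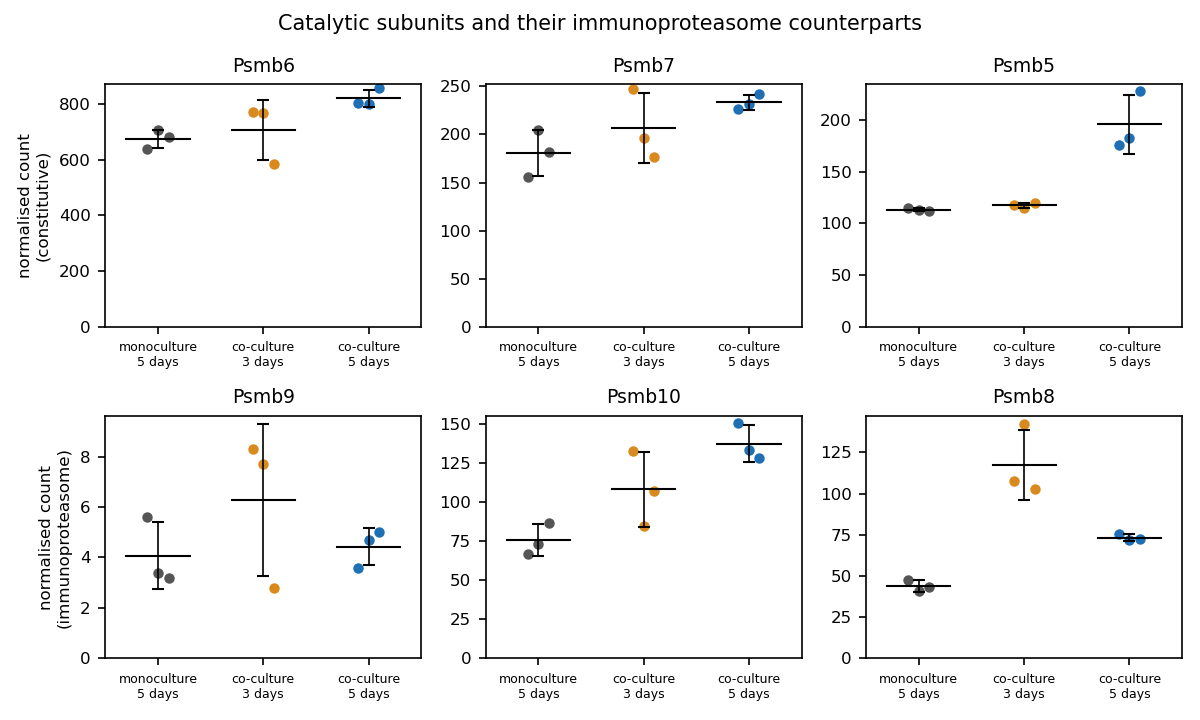
Normalised count (y axis, from 0, own scale in each panel) of the 3 constitutive catalytic subunits (top row) and their immunoproteasome counterparts (bottom row), with 1 point per library, the group mean as a line and the SD as a bar (n = 3). Psmb5 stands apart only at 5 days, at 176.1 to 228.5, whereas Psmb8 is highest at 3 days, at 103.0 to 142.0.

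Of the 6 ATPases, which unfold the substrate and open the gate, 1 passed the test, at 5 days. Psmc6 (chromosome 14, 45329788 to 45349705, plus strand) was 111.4, 143.7 and 149.8 in the monocultures, 192.6, 160.8 and 231.0 at 3 days, and 179.7, 260.8 and 288.4 at 5 days. All 6 co-culture values lay above all 3 monoculture values. It rose 1.77-fold at 5 days (log2 fold change 0.83, SE 0.22, limma adjusted p = 0.0105), and the call ended without 5-day co-culture replicate 3 (adjusted p = 0.0531, with 0.00327 to 0.0531 over the alternatives). At 3 days it did not pass, at 0.52 (adjusted p = 0.101). Psmc3 was 628.2, 576.8 and 712.8 in the monocultures, 589.5, 499.8 and 395.1 at 3 days, and 878.7, 730.2 and 630.5 at 5 days. Its 5-day values lay wholly above its 3-day values and overlapped those of the monoculture, and the log2 fold change of 0.60 between the days did not pass (SE 0.19, adjusted p = 0.0708, and 4 of 24 alternatives passed, 1 of them leaving out 3-day co-culture replicate 1, at 0.0477, within a range of 0.0295 to 0.292). Psmc1, Psmc2, Psmc4 and Psmc5 had log2 fold changes between -0.27 and 0.17 against the monoculture on either day.

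Of 11 non-ATPase subunits of the regulatory particle, 1 passed, on both days. Psmd8, a lid subunit also called Rpn12 (chromosome 7, 29174188 to 29180701, minus strand), was 552.7, 440.3 and 532.2 in the monocultures, 920.0, 896.6 and 890.4 at 3 days, and 893.1, 774.0 and 799.0 at 5 days. The co-cultures all lay above the monocultures. The gene rose 1.78-fold at 3 days (log2 fold change 0.83, SE 0.16, limma adjusted p = 0.00163) and was 1.62-fold higher at 5 days (0.70, SE 0.16, adjusted p = 0.00482). Both calls passed in all 24 alternatives. Between the days its log2 difference was -0.14, with a 95% interval from -0.48 to 0.20.

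Psmd6, another lid subunit, was 195.0, 254.3 and 209.5 in the monocultures, 164.4, 220.7 and 264.3 at 3 days, and 334.2, 468.5 and 249.7 at 5 days. Its groups overlapped by 1 library at 5 days, and the log2 fold changes of 0.64 against the monoculture (SE 0.23, limma adjusted p = 0.0595) and 0.67 between the days (adjusted p = 0.0952) did not pass. At 5 days against the monoculture 8 of 24 alternatives passed, among them those without 3-day replicate 1 (0.0458), 3-day replicate 3 (0.0457) and 5-day replicate 3 (0.0211), and the range was 0.0173 to 0.274. Psmd11, also of the lid, lay wholly above the monoculture on both days, at 180.1, 138.0 and 176.1 in the monocultures, 204.0 to 246.3 at 3 days and 205.8 to 226.0 at 5 days, with log2 fold changes of 0.47 and 0.40 (adjusted p = 0.0706 and 0.114). At 3 days it passed in 1 of 24 alternatives, with quantile normalization (0.0470). The deubiquitinase Psmd14 was at 0.23 and 0.35. The ubiquitin receptor Psmd4 was at -0.10 and -0.33, and its monocultures alone ran from 474.9 to 860.3. The large scaffold subunits were at 0.05 and 0.09 (Psmd1) and at 0.12 and 0.11 (Psmd2). Psmd3, Psmd7, Psmd12 and Psmd13 lay between -0.45 and 0.29, with overlapping groups.

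Chaperones of the regulatory particle bind its ATPases during assembly. Psmd10, also called gankyrin (chromosome X, 140948429 to 140956728, minus strand), was 53.8, 64.4 and 54.0 in the monocultures, 78.0, 107.9 and 91.8 at 3 days, and 97.9, 104.3 and 116.1 at 5 days. All co-culture values lay above the monocultures. At 5 days it was 1.84-fold higher (log2 fold change 0.88, SE 0.20, limma adjusted p = 0.00463), and all 24 alternatives passed. At 3 days it rose 1.59-fold (0.67, SE 0.20, adjusted p = 0.0266). The 3-day call ended without monoculture replicate 1 (adjusted p = 0.0819) or 3 (0.0926) or 3-day co-culture replicate 2 (0.115) or 3 (0.0544), and was 0.210 with every library thinned to the depth of the shallowest, within a range of 0.00280 to 0.210. Psmd5 was at 0.27 and 0.36, did not pass, and lay wholly above the monoculture at 5 days. Psmd9 was 3.1, 2.4 and 4.5 in the monocultures, 0.0, 1.4 and 1.4 at 3 days, and 0.9, 1.9 and 0.0 at 5 days, from 17, 3 and 3 reads, and was not tested.

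None of the 4 chaperones of the 20S core passed in any comparison with limma, edgeR or DESeq2 (0 also at an unadjusted p under 0.05 with each), and all 12 of their log2 fold changes lay between -0.28 and 0.32. The smallest adjusted p was that of Psmg2, at 0.261. It was 96.6 ± 3.62 (SD, n = 3) in the monocultures, 112.9, 151.1 and 104.3 at 3 days, and 94.3, 103.4 and 102.4 at 5 days, so that the 3-day libraries lay above both other groups. Its 3-day value passed in 1 of 24 alternatives, that with array weights in limma (adjusted p = 0.0462, within a range of 0.0462 to 0.642). Psmg3 was 65.2 to 83.6 over all 9 libraries.

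**Figure D4:**
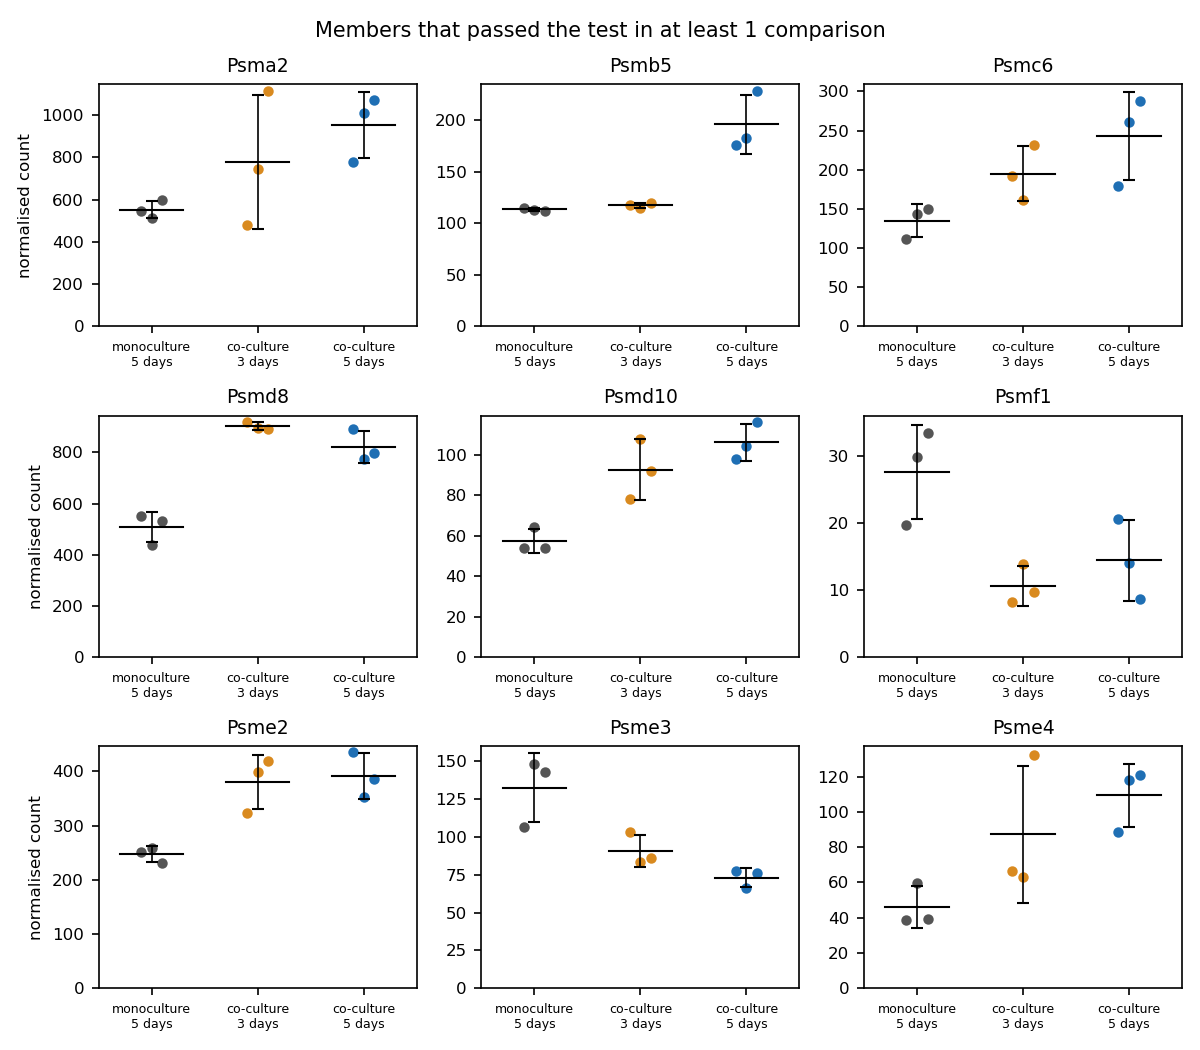
Normalised count (y axis, from 0, own scale in each panel) of the 9 members that passed the test in at least 1 comparison, with 1 point per library, the group mean as a line and the SD as a bar (n = 3). Psmd8 and Psmd10 are above the monoculture in all 6 co-culture libraries, Psmb5 at 5 days only, Psme3 is below it on both days, and Psmf1 is below it at 3 days and overlaps it at 5 days.

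Activators and the inhibitor of the core held the widest differences, in both directions. Psme4, which encodes the nuclear activator PA200 (chromosome 11, 30771726 to 30880361, plus strand), was 39.0, 59.6 and 39.2 in the monocultures, 66.4, 63.3 and 132.2 at 3 days, and 88.9, 118.3 and 121.1 at 5 days. No co-culture library overlapped the monocultures. It rose 2.38-fold at 5 days (log2 fold change 1.25, SE 0.28, limma adjusted p = 0.00386, at most 0.0224 in 24 alternatives). At 3 days it rose 1.81-fold (0.86, SE 0.28, adjusted p = 0.0410), with the third library far above the other two. Without that library the 3-day fold change was 0.52 (adjusted p = 0.187), and the call also ended without monoculture replicate 1 (0.115) or 3 (0.134) and, through the shared estimate of the spread, without 5-day replicate 2 (0.0514) or 3 (0.0543). Over the 24 alternatives its adjusted p at 3 days ranged from 0.0165 to 0.187, and 16 passed.

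Psme1 and Psme2 encode the alpha and beta subunits of PA28, an activator induced by interferon that caps the core together as 1 ring. Psme2 (chromosome 14, 55587441 to 55591113, minus strand) was 251.9, 259.1 and 232.0 in the monocultures, 323.8, 398.9 and 418.8 at 3 days, and 435.8, 352.1 and 385.8 at 5 days. All co-cultures lay above all monocultures, at log2 fold changes of 0.61 at 3 days (SE 0.17, limma adjusted p = 0.0184) and 0.65 at 5 days (SE 0.17, adjusted p = 0.0104). The 5-day call passed in all 24 alternatives. The 3-day call ended without monoculture replicate 3 (0.0772) or 3-day co-culture replicate 2 (0.0681) or 3 (0.0626), within a range of 0.00268 to 0.104. Psme1 was 245.1, 254.8 and 202.5, then 235.8, 283.3 and 178.1, then 285.7, 272.0 and 211.0, with overlapping groups and log2 fold changes of -0.03 and 0.12. Their difference in response was not tested.

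Psme2b is an intronless copy of Psme2 (chromosome 11, 48945354 to 48946190, minus strand), and reads of such a copy can be split between the genes, so both values are uncertain. It was 13.0, 9.1 and 21.2 in the monocultures, 43.2, 25.8 and 55.7 at 3 days, and 35.0, 9.3 and 58.7 at 5 days. The 3-day libraries lay wholly above the monocultures at a log2 fold change of 1.47 (SE 0.51, limma adjusted p = 0.0507). That value passed in 10 of 24 alternatives, including those without monoculture replicate 3 (0.0427), 3-day replicate 2 (0.0498) and 5-day replicate 2 (0.00946) or 3 (0.0374), within a range of 0.00413 to 0.157. At 5 days replicate 2 stood at the level of the monocultures, and without it the log2 fold change was 1.66 (adjusted p = 0.00957) in place of 0.94 (0.200), within a range of 0.00957 to 0.642.

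Psme3, which encodes the nuclear activator PA28 gamma (chromosome 11, 101316213 to 101323537, plus strand), went the other way. It was 106.5, 148.5 and 142.7 in the monocultures, 103.0, 83.5 and 86.3 at 3 days, and 77.3, 66.1 and 76.2 at 5 days. The groups did not overlap, and the 5-day libraries lay lowest. It fell by 0.84 on the log2 scale at 5 days (SE 0.20, limma adjusted p = 0.00631), a call that passed in 23 of 24 alternatives and ended, at 0.0847, when the 3 libraries low in GC-rich transcripts were left out together. At 3 days the value of -0.53 did not pass (adjusted p = 0.0753), and without monoculture replicate 1 it was -0.68 (0.0480, within a range of 0.0124 to 0.345).

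Psmf1 encodes PI31, an inhibitor of the isolated core (chromosome 2, 151715812 to 151744186, minus strand). It was 19.8, 29.8 and 33.4 in the monocultures, 8.3, 13.9 and 9.7 at 3 days, and 20.7, 14.0 and 8.7 at 5 days, from 146, 32 and 45 reads. The 3-day libraries lay below all monocultures, and at 5 days 1 library overlapped them. It fell by 1.30 on the log2 scale at 3 days (SE 0.36, limma adjusted p = 0.0180). That call ended without monoculture replicate 2 (0.0660) or 3 (0.0864) or 3-day replicate 1 (0.0529), within a range of 0.00935 to 0.132 over 23 alternatives. At 5 days the value of -0.93 did not pass (0.0725), and without 5-day replicate 1 it was -1.22 (0.0383, within a range of 0.0383 to 0.250).

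Psmc3ip, the match that is no proteasome subunit, was 11.8, 14.9 and 27.0 in the monocultures, 10.0, 7.7 and 5.6 at 3 days, and 9.0, 10.2 and 8.7 at 5 days. All co-cultures lay below the monocultures, and neither the value of -1.06 at 3 days (limma adjusted p = 0.0591) nor that of -0.80 at 5 days (0.142) passed. At 3 days 5 of 23 alternatives passed, among them those without monoculture replicate 1 (0.0477) and without 3-day replicate 1 (0.0450), within a range of 0.0126 to 0.286.

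Other genes of the pathway were taken from lists of 45 names, of which 39 were in the table and 37 were tested. At 3 days 5 of the 37 rose and 2 fell against the monoculture, the immunoproteasome subunits included, where 10.6% of all tested genes rose and 9.37% fell. At 5 days 5 rose and 1 fell, where 12.6% of all tested genes rose and 11.4% fell. The transcription factor Nfe2l1, which drives proteasome genes when proteasome activity is short, was 621.4, 432.6 and 500.0 in the monocultures, 1210.6, 937.0 and 662.2 at 3 days, and 584.9, 388.4 and 568.0 at 5 days. It thus rose at 3 days alone, by 0.83 on the log2 scale (SE 0.23, limma adjusted p = 0.0183), and at 5 days its groups overlapped, at -0.02. The 3-day call ended without monoculture replicate 2 (0.0775) or 3 (0.0553) or 3-day replicate 1 (0.0773) or 2 (0.0615), within a range of 0.00242 to 0.0775. Its relative Nfe2l2, the main antioxidant regulator, was 100.3, 72.1 and 105.4, then 171.0, 214.4 and 346.4, then 124.0, 146.2 and 188.5, and rose at 3 days by 1.34 (SE 0.25, adjusted p = 0.00141). At 5 days Nfe2l2 also lay wholly above the monoculture, by 0.72, but did not pass (limma adjusted p = 0.0514). That value passed in 10 of 24 alternatives, within a range of 0.0184 to 0.190. The difference of -0.63 between the days did not pass (0.152). Mafk, a small partner of both, was 100.3, 51.0 and 67.5, then 59.8, 35.5 and 32.0, then 28.8, 16.8 and 21.2, and fell by 1.65 at 5 days (SE 0.31, adjusted p = 0.00104).

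Sqstm1, the ubiquitin-binding shuttle p62, was 1341.8, 1136.8 and 1228.2 in the monocultures, 2871.2, 2708.6 and 2262.2 at 3 days, and 1401.6, 905.3 and 911.4 at 5 days. The 3-day libraries stood above both other groups, by 1.08 on the log2 scale against the monoculture (SE 0.19, limma adjusted p = 0.000949). Pomp, the maturation chaperone of the core, was 567.5, 657.1 and 696.1, then 725.7, 907.7 and 791.6, then 1040.4, 1099.0 and 851.4, and rose by 0.63 at 5 days (SE 0.17, adjusted p = 0.0129). Its call ended without monoculture replicate 1 (0.0618) or 5-day replicate 2 (0.0605), within a range of 0.00353 to 0.0922. Uba6, an enzyme that activates ubiquitin, was at 1.9 to 3.7 in the monocultures, 6.6 to 33.4 at 3 days and 11.7 to 18.7 at 5 days, and rose on both days, by 2.17 and 2.05 (adjusted p = 0.00466 and 0.00586), from 14 reads in the monocultures. It met the filter on low values only through the co-cultures. The filter thus favoured a rise, and these p-values are not read as support for one. The shuttle Ubqln1 rose by 0.62 at 5 days (adjusted p = 0.0193, a call that ended without monoculture replicate 2, at 0.0919, or 5-day replicate 3, at 0.0773, within a range of 0.0118 to 0.0978). Txnl1, a thioredoxin-like protein bound to the regulatory particle, fell by 1.37 at 3 days, from 57.6, 38.5 and 54.0 to 19.9, 18.8 and 16.7 (adjusted p = 0.00151). Faf1, a partner of the unfoldase p97, met the filter only through the monocultures, at 5.6 to 7.7, which favoured a fall. It fell by 1.52 at 3 days on 34 and 4 reads (adjusted p = 0.0490), and that call ended without any 1 of 8 of the libraries, all but 3-day replicate 3, within a range of 0.00553 to 0.175. Txnl1 and Mafk overlap another gene in the table (Wdr7 and Tmem184a), so their reads are uncertain in the same way.

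Libraries of 1 group differed from each other in step with the GC content of the transcripts. Over the 44 tested members, Spearman's rho between GC content and the deviation of a gene from its group mean was 0.373, -0.323 and -0.0882 in the monocultures, 0.575, 0.261 and -0.566 at 3 days, and 0.403, -0.470 and 0.0468 at 5 days. Over 10036 tested genes with a known GC content the same values were 0.301, -0.289 and -0.0354, then 0.255, 0.146 and -0.366, then 0.237, -0.275 and 0.0322. Monoculture replicate 2, 3-day replicate 3 and 5-day replicate 2 were thus the libraries low in GC-rich transcripts, 1 in each group. The fold changes of the members also ran with GC content, at a rho of -0.57 at 3 days and -0.49 at 5 days against the monoculture and -0.04 between the days, beside -0.07, -0.08 and -0.03 over all genes. Psmc6 and Psma2 had the lowest GC contents among the members, at 37.0% and 39.4%, and Psmb5 had the second highest, at 56.6%. After each library's trend with GC content was removed, the members' rho was -0.58, -0.47 and 0.01. These are descriptions over genes that share their libraries, and the part of GC content in the results was not tested. Without the 3 libraries named, the counts of members that passed were 1 at 3 days, 7 at 5 days and 0 between the days. Over all tested genes 1198, 1648 and 427 passed in those fits, against 2129, 2552 and 735 with all libraries.

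**Figure D5:**
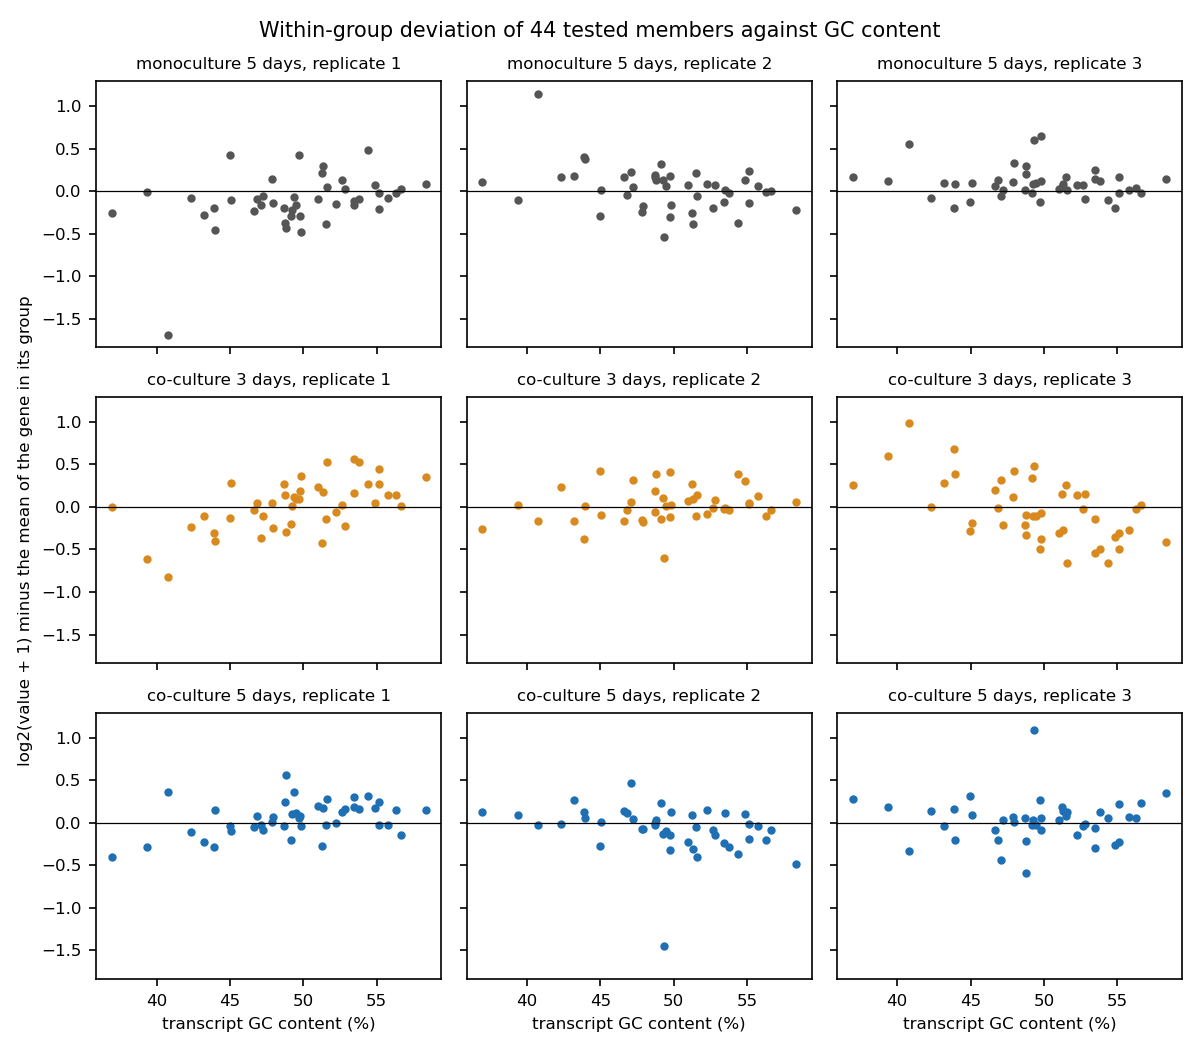
Deviation of each of the 44 tested members from its group mean on the log2(value + 1) scale (y axis) against the GC content of its transcript in percent (x axis), with 1 panel per library and 1 point per gene. The points rise with GC content in the first replicate of each group and fall in monoculture replicate 2, 3-day replicate 3 and 5-day replicate 2.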

How the data were processed

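The 9 libraries of sorted fibroblasts, 3 in each of 3 groups, were made from the 3′ ends of mRNA. Per the submitters' processing notes, bcl2fastq, STAR 2.4.2a, HTSeq and mm10 were used. The annotation, the strand setting, the gene filter and the library factors are not given in the sources used here. The authors deposited normalised counts, a signal on a count scale set by 1 factor per library. Low values were whole multiples of 1 step per library, so whole reads were recovered by division, and at least 99.98% of the values in every library were whole at a tolerance of 0.051.

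Tests were two-sided and used limma 3.58.1 (R 4.3.3) with a trended prior variance, fitted to log2(value + 1) of all 9 libraries at once. P-values were adjusted by Benjamini-Hochberg over the 10639 genes that reached 5 in 3 or more libraries, and 0.05 was the threshold. Fold changes on the log2(value + 1) scale understate the change of low genes. Alternatives used edgeR 4.0.16 (quasi-likelihood) and DESeq2 1.42.0 on the recovered reads, pseudocounts of 0.5 and 5, other filters and scalings, a replicate block, array weights, thinning and leaving out each library. A correction for transcript GC content, and leaving out 3 libraries together, were added after seeing the data. The fit was tested on simulated data.

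Gene positions and overlaps came from GENCODE M21 on GRCm38, the same assembly as mm10, and GC content from its transcripts. Promoters came from the RefSeq table of GRCm38.p6. The members, the lists of related genes and markers, and the motifs were chosen with earlier results of these data known. Values in all libraries were given, by rule, for called members, the 3 with the largest fold change in each comparison, all activators and inhibitors, and the member of each role with the smallest adjusted p, and a few others were named after their values were seen. Of the lists of related genes, 1 gene is not reported here. The same-numbered libraries of different groups were not treated as pairs, since the labels do not say that they share a source. Their deviations from the group means correlated at -0.114 to 0.233, beside -0.298 to 0.323 for libraries with different numbers. As these deviations also followed GC content, the correlations cannot show whether the libraries are paired, and a replicate block was run as an alternative. No molecular identifiers were described, so reads may be copies of 1 molecule.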

Additional observations from a re-analysis of the deposited data

Results flagged for a closer look

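A direct test of the 5-day against the 3-day libraries covered 44 proteasome genes and 37 listed genes of the pathway. Of these, 3 differed between the 2 days of co-culture, beside 735 of all 10639 genes tested (3.20% higher and 3.71% lower at 5 days). Psmb5 was higher at 5 days, by 0.72 on the log2 scale (limma adjusted p = 0.0219), with all 3 libraries above all 3 at 3 days, and the call ended without 3-day replicate 2 or 5-day replicate 3, at 0.0804 and 0.0787.

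Sqstm1 was lower at 5 days, at -1.31 (limma adjusted p = 0.000792), with all 3 libraries below those at 3 days, and it passed in all 24 alternatives. Nfe2l1 was lower at 5 days, at -0.85 (adjusted p = 0.0368), again with no overlap. Its call ended without any 1 of 3-day replicates 1 and 2 (0.138 and 0.121) and 5-day replicates 1, 2 and 3 (0.0571, 0.153 and 0.0658), within a range of 0.0109 to 0.153.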

How the results depend on the processing

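The number of members that passed at 5 days against the monoculture was 8 and stayed within 1.5 times of that under every alternative run, at 7 to 9 when any 1 library was left out. At 3 days the number was 5, and it was 9 with array weights, 3 with all libraries thinned to the shallowest, 1 without the 3 libraries low in GC-rich transcripts, and 2 to 7 with 1 library left out. Between the days it was 1, and it was 3 with array weights, 2 with DESeq2, 0 with thinned libraries, 3 with GC-adjusted values, 0 without the 3 libraries, and 0 to 2 with 1 library left out. Fewer reads or libraries enter the thinned and left-out fits, and for the other changes the cause was not tested. Over all tested genes the calls numbered 2129, 2552 and 735 with all libraries and 1198, 1648 and 427 without the 3 libraries. They numbered 3004, 2994 and 1124 with array weights and 1678, 2136 and 518 with thinned libraries, in the same order. Between the days 884 genes passed with GC-adjusted values and 738 with DESeq2. With 1 library left out, 1487 to 2118 genes passed at 3 days, 1875 to 2744 at 5 days and 311 to 749 between the days.

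The 14 member values that passed were refitted 335 times in all: 298 passed again in the same direction, 37 did not pass and 0 reversed. Among values that had not passed, reversals were scored only for the larger fold changes. Of these, that of Psma3 at 3 days reversed to -0.11 without monoculture replicate 1, and ran up to 1.31 with another library left out. That of Psme2b between the days reversed to 0.19 without 5-day replicate 2 and to 0.43 without the 3 libraries, and ran down to -1.08 with another left out. Psma3 was low in the library left out, and Psme2b in the 5-day replicate left out. Smaller values, which were not scored, also changed sign over the alternatives. Among them were Psma7 (-0.15 to 0.26) and Psmd4 (-0.30 to 0.22) at 3 days against the monoculture.

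Same-numbered libraries share only a number as far as the labels say. With the number as a replicate block the counts were 6 at 3 days, 10 at 5 days and 1 between the days. Over all tested genes 2219, 2663 and 827 passed in those fits. With the block Psmd6 at 5 days (limma adjusted p = 0.0398) and Psme2b at 3 and 5 days (0.00413 and 0.0445) passed. Not every library correlated best with its own number. Depth limits Psmd9, Psmf1, Psme2b and Psmc3ip, which rest on few reads.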
